A study of Mus musculus with 6 samples.

Results

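The let-7 family is the group of microRNAs (miRNAs) let-7a, let-7b, let-7c, let-7d, let-7e, let-7f, let-7g, let-7i and miR-98. Its 9 probes (1org-7a, 1org-7b, 1org-7c, 1org-7d, 1org-7e, 1org-7f, 1org-7g, 1org-7i and 1org-98) were followed here among the 171 miRNA probes (178 probes in all) of 6 two-colour arrays. They were taken by name, but the family was chosen with earlier results of these data known. The arrays compared total RNA of mouse CD4+25+ cells (CD4+CD25+, natural regulatory T cells, which restrain other T cells) with that of CD4+25- cells (CD4+CD25-, conventional T cells), both on the same array. The CD4+CD25+ sample carried the dye Cy5 on arrays 1, 3 and 5 and the dye Cy3 on arrays 2, 4 and 6, and the series design counts these as dye-swapped pairs from 3 biological replicates. No strain, age, treatment or sorting scheme is given in the sources used here. The labels leave unsaid which arrays make up a replicate and whether separate mice were used, so the p-values measure only the spread between these samples, which may be technical. Protein markers of the cells, such as Foxp3, are not measured on a miRNA array. Of 3 miRNAs best known from other blood cells, miR-223 (myeloid) had a mean ratio of 4.12 ± 0.855 (SD, n = 3 replicates) and miR-144 (erythroid) of 0.69 ± 0.870, and miR-451 has no probe among the 178. The median of the mean ratios over all miRNA probes was 0.82. The part of other cells in the let-7 ratios was not tested.

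Each value below is the log2 ratio, on 1 array, of regulatory (CD4+CD25+) over conventional (CD4+CD25-) cells. The deposited ratio was read as Cy5 over Cy3 and as log2, and arrays with CD4+CD25+ cells in Cy3 were multiplied by -1 ("turned"). The order of the channels makes this direction likely. The file states neither it nor the log base, and the opposite reading turns every sign. It is equally unstated whether dye-swapped arrays were turned before deposit. After turning, miR-223, the probe with the highest mean in each orientation, had 4.05 with CD4+CD25+ in Cy5 and 4.18 with it in Cy3. Without turning, its sign would differ between the orientations. Most probes were less alike, as 63.2% were lower with CD4+CD25+ in Cy5 in limma's fit with a dye column. The turned arrays of opposite dye correlated over the 171 probes at -0.25 to 0.37, against 0.52 to 0.62 among the arrays with CD4+CD25+ in Cy5 and 0.90 to 0.92 among those with it in Cy3. The medians of the 171 probes were -0.31 to 0.097 on the first set and 1.29 to 1.83 on the second, so the zero point of the arrays is unsettled. The number of arrays limits the precision, and no spot intensities were used here, so how far a probe stood above background is unknown.

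miRNAs are short RNAs that lower the output of messenger RNAs with sites that pair with their seed, bases 2 to 8 of the mature strand. let-7 was first found as a timing gene of the nematode, and in mammals it is low in embryonic stem cells, where LIN28 blocks its processing, and rises as cells differentiate; well known targets are the Ras genes, Hmga2 and Lin28 itself. In T cells let-7 is abundant in the resting state and falls after activation. The mature sequences are shown here because the members differ at only a few bases outside the seed, and because probes for such near-identical RNAs may share signal. All 9 members matched a RefSeq entry (table of build GRCm38.p6). The seed is in capitals, and the sequences run 5′ to 3′.
let-7a: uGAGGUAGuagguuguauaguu
let-7b: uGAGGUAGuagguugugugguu
let-7c: uGAGGUAGuagguuguaugguu
let-7d: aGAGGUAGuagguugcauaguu
let-7e: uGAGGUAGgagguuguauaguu
let-7f: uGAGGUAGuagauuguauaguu
let-7g: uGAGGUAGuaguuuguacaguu
let-7i: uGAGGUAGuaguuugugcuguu
miR-98: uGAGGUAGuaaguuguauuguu
The 9 sequences share 1 seed, a length of 22 bases and the same base at 14 of the 22 positions. Counted from 1 at the 5′ end and given with the base of let-7a first, let-7c differs from let-7a by A19G, let-7e by U9G and let-7f by G12A. let-7b differs by A17G and A19G, let-7d by U1A and U16C, let-7g by G12U and U18C, and miR-98 by G11A and A19U. let-7i differs most, by G12U, A17G, U18C and A19U. In RefSeq's gene list the 9 miRNAs come from 12 genes, since let-7a, let-7c and let-7f each come from more than 1 gene, and an array of mature miRNAs cannot tell such genes apart.

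let-7b and let-7c, whose genes let-7b and let-7c-2 lie within 10 kb of each other, had the lowest ratios of the family and were its members called lower in CD4+CD25+ cells. let-7c had ratios of -0.32, -0.36 and -1.04 on arrays 1, 3 and 5 and of -0.85, -2.16 and -1.44 on arrays 2, 4 and 6. It was the 1 member below 0 on 6 of 6 arrays, as were 8.77% of all miRNA probes. Its mean of -1.03 ± 0.518 (SD, n = 3) is 2.04-fold lower if the log base is 2 (limma, largest Benjamini-Hochberg adjusted p over the 6 possible pairings of the arrays = 0.00569). let-7b had -0.21, 0.13 and -0.91 on arrays 1, 3 and 5 and -0.95, -2.05 and -1.27 on arrays 2, 4 and 6, so it was below 0 on 5 of 6. Its mean was -0.88 ± 0.547 (SD, n = 3; limma adjusted p = 0.00728). Both calls were lost without arrays 3 and 2 (adjusted p = 0.0594 for each probe in limma, at -1.11 for let-7b and -1.24 for let-7c) and without arrays 5 and 6 (adjusted p = 0.0846 at -0.77 and 0.0841 at -0.92). They were also lost on the 3 arrays with CD4+CD25+ in Cy5 alone, where let-7b had -0.33 ± 0.526 (limma adjusted p = 0.57) and let-7c -0.57 ± 0.401 (adjusted p = 0.274), and after scale normalization, which divides each array by its own factor (adjusted p = 0.21 and 0.121). With the mean of the U6 and tRNA probes set to 0, let-7b had -0.41 (limma adjusted p = 0.36) and let-7c -0.56 (adjusted p = 0.201), and neither passed.

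let-7a, let-7d and let-7f, whose genes let-7a-1, let-7f-1 and let-7d neighbour each other within 10 kb, had middling ratios that did not pass the test. let-7a had 0.83, -0.015 and -0.38 on arrays 1, 3 and 5 and -0.18, -1.98 and -0.998 on arrays 2, 4 and 6, with a mean of -0.45 ± 0.750 (SD, n = 3; limma adjusted p = 0.113). let-7d had 0.73, 0.12 and -0.31 and then -0.046, -1.63 and -0.81, with a mean of -0.32 ± 0.657 (limma adjusted p = 0.252). let-7f had 1.38, -0.51 and 0.0070 and then -0.0060, -1.62 and -1.32, with a mean of -0.35 ± 0.916 (limma adjusted p = 0.24). On all 3 arrays with CD4+CD25+ in Cy3 these members were below 0, and on array 1 all 3 were above 0. let-7f was the most uneven member.

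let-7g and let-7i have no miRNA gene within 10 kb of theirs. let-7i had 0.068, 0.25 and -0.67 on arrays 1, 3 and 5 and -0.53, -1.53 and -0.59 on arrays 2, 4 and 6, with a mean of -0.50 ± 0.522 (SD, n = 3; limma adjusted p = 0.0831). let-7g had 0.83, 0.24 and -0.20 and then 0.75, -1.23 and -0.36. Its mean was 0.0063 ± 0.754 (limma adjusted p = 0.981), with 3 arrays above 0 and 3 below. The ratio of let-7g on array 2 was the only value above 0 among the 21 that let-7a, let-7b, let-7c, let-7d, let-7f, let-7g and let-7i had on the arrays with CD4+CD25+ in Cy3.

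let-7e and miR-98 stood apart from the other 7 members, a division made after their values were seen. let-7e lies beside miR-99b and miR-125a, and miR-98 beside let-7f-2. let-7e had -0.35, -0.80 and -0.089 on arrays 1, 3 and 5 and 1.59, 1.20 and 1.37 on arrays 2, 4 and 6. It was below 0 on every array of the first set and above 0 on every array of the second, without overlap. Most miRNA probes moved the same way, as 63.2% were lower with CD4+CD25+ in Cy5 in limma's fit with a dye column. The let-7e mean of 0.49 ± 0.275 (SD, n = 3; limma adjusted p = 0.0907) did not pass. miR-98 had 0.42, -0.50 and 1.20 and then 1.75, 1.60 and 1.31, and was above 0 on 5 of 6 arrays. Its mean of 0.96 ± 0.536 was the 1 higher call of the family (limma adjusted p = 0.00868). Of all miRNA probes 67.3% were called higher, and the median of their means was 0.82. The miR-98 call was lost without arrays 1 and 2 (adjusted p = 0.052 at 0.90), 3 and 2 (0.0594 at 1.13), 5 and 2 (0.0595 at 0.71) or 5 and 6 (0.0846 at 0.82) in limma, and relative to the array median, where miR-98 had 0.19 ± 0.531 (adjusted p = 0.556). Scale normalization (limma adjusted p = 0.218 at 0.86) and the Cy5 arrays alone (0.598 at 0.37) lost it too. So did setting probes for miRNAs of other tissues to 0 (limma adjusted p = 0.928 at 0.039).

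**Figure D1:**
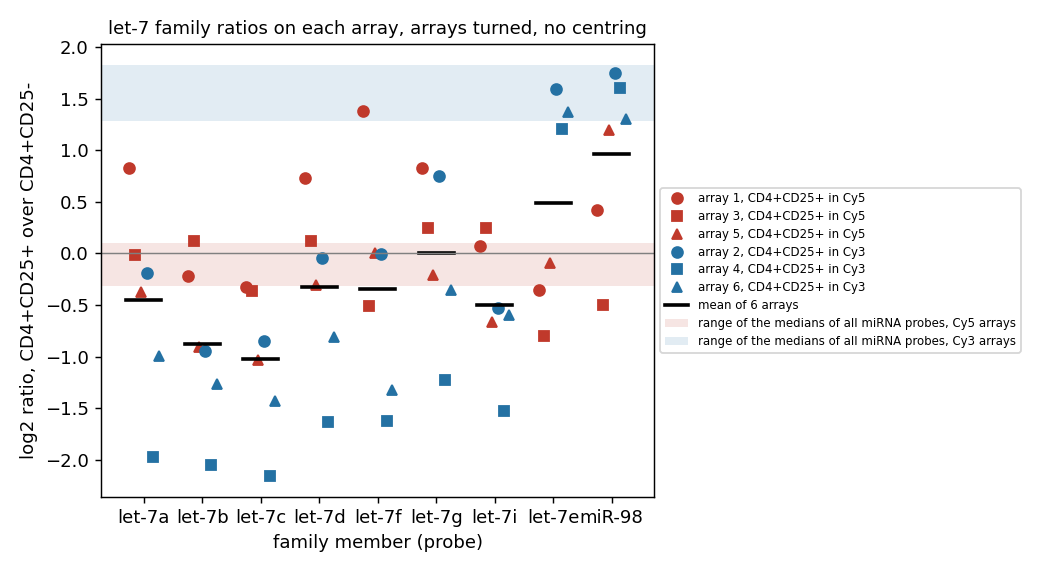
Log2 ratio of regulatory over conventional T cells (y axis) for each family member (x axis), with 1 point per array, red for arrays with CD4+CD25+ in Cy5 and blue for Cy3; bars are means of 6 arrays and the shaded bands span the medians of the 171 miRNA probes on each set of arrays. On the Cy3 arrays let-7e and miR-98 sit at 1.20 to 1.75, in or near the band of medians, and the other 7 members at -2.16 to 0.75, below it.

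Over the family, 2 of 9 members were lower, 1 was higher and 6 did not pass (3 of 9 had an unadjusted p under 0.05). Of all 171 miRNA probes 8.77% were called lower and 67.3% higher. The median of the members' means was -0.35, against 0.82 over all miRNA probes. The counts moved with the zero point of the arrays. With the median miRNA probe of each array set to 0, 7 of 9 members were lower and 0 higher in limma (also 7 at an unadjusted p under 0.05), against 22.8% and 5.26% of all probes. The members' median was then -1.12, against 0.051 over all probes. Centring on 24 off-tissue probes (miRNAs known from embryonic stem cells, nerve, liver, muscle or epithelium) also gave 7 lower and 0 higher, against 23.4% and 4.68%. Centring on U6, a spliceosomal RNA, and 4 tRNAs, which together had a mean ratio of -0.47, gave 0 lower and 2 higher (let-7e at 0.95 and miR-98 at 1.43), against 0.585% and 73.7%, with a members' median of 0.12. The fit over 6 arrays with a column for the dye, which pairs no arrays, gave 3 lower (let-7i at limma adjusted p = 0.0417 beside let-7b and let-7c) and 2 higher (let-7e at adjusted p = 0.0376 beside miR-98), against 10.5% and 71.9%. That fit takes both arrays of a replicate as independent, so its p-values rest on more units than there are replicates. Leaving out the noisiest 25% of the other probes in each pairing, with all members kept whatever their noise, gave 4 lower (let-7a, let-7b, let-7c and let-7i) and 2 higher (let-7e and miR-98) in limma, against 13.7% and 68.4% of the 95 probes kept in all 6 pairings. Scale normalization called 0 of 9 in limma (1 at an unadjusted p under 0.05), against 2.34% lower and 5.26% higher.

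The 7 calls after median centring were let-7a at -1.23 ± 0.659 (SD, n = 3), let-7b at -1.65 ± 0.503, let-7c at -1.80 ± 0.466, let-7d at -1.10 ± 0.567, let-7f at -1.12 ± 0.813, let-7g at -0.77 ± 0.664 and let-7i at -1.27 ± 0.464, with limma adjusted p values from 6.58e-05 (let-7c) to 0.0251 (let-7g). let-7e stayed close to the median probe on every array, from -0.49 to -0.083, with a mean of -0.29 ± 0.170 (adjusted p = 0.296). let-7c and let-7e were the 2 members below 0 on 6 of 6 arrays after this centring (7.6% of all probes), and 0 members were above 0 on all of them (5.85%). The 7 calls came from 1 dye orientation. On the arrays with CD4+CD25+ in Cy3 all 21 centred values of the 7 members were below 0, from -3.45 to -1.08. On the arrays with it in Cy5 only 11 of 21 were below 0, and they ranged from -1.13 to 1.46. Fitted alone after median centring, an analysis added after the data were seen, the Cy3 arrays gave 7 of 9 lower and 0 higher (34.5% of all probes lower), and the Cy5 arrays gave 0 lower and 0 higher in limma (3.51% of all probes lower; 0 of 9 members at an unadjusted p under 0.05). Without arrays 1 and 6 the count after centring was 2, and without arrays 1 and 4 it was 4.

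**Figure D2:**
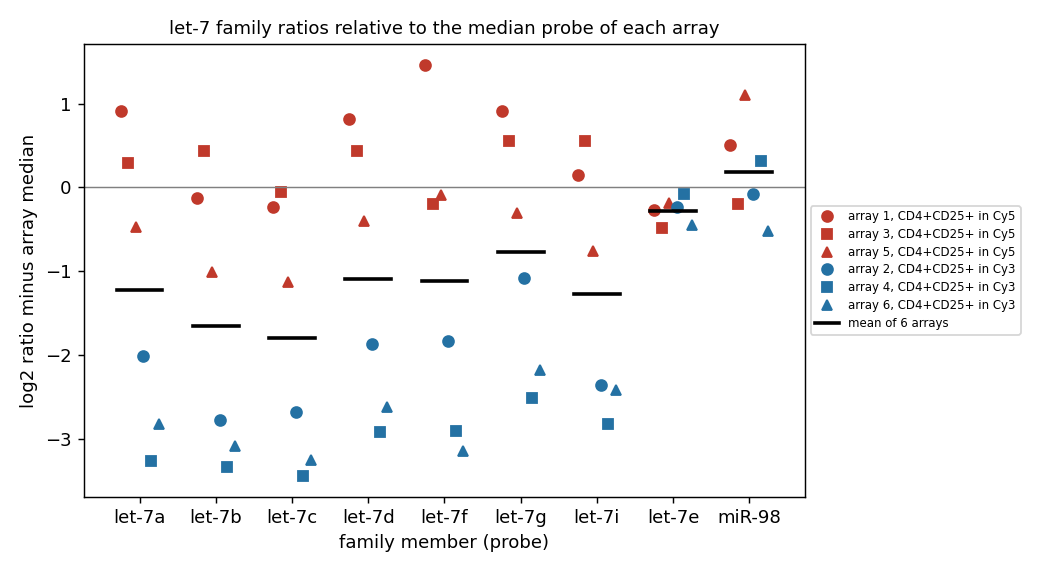
Log2 ratio minus the median of the 171 miRNA probes of the same array (y axis) for each member (x axis), with points by array, red for CD4+CD25+ in Cy5 and blue for Cy3, and bars for the mean of 6 arrays. All blue points of let-7a, let-7b, let-7c, let-7d, let-7f, let-7g and let-7i lie at -1.08 or lower, and the red points lie on both sides of 0.

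The dependence on the dye was tested in a fit over the 6 arrays with a column for the dye. This fit takes the arrays as independent, though the series design makes them dye swaps of fewer replicates. Without centring 5 of 9 members passed (limma). Of these, 3 had higher ratios with CD4+CD25+ in Cy5: let-7a by 1.20 ± 0.480 (standard error; adjusted p = 0.0298), let-7b by 1.09 ± 0.449 (adjusted p = 0.0336) and let-7f by 1.27 ± 0.505 (adjusted p = 0.0284). The other 2 had lower ratios in that orientation: let-7e by -1.80 ± 0.425 (adjusted p = 0.000552) and miR-98 by -1.18 ± 0.458 (adjusted p = 0.0258). Over all miRNA probes 7.02% were higher and 63.2% lower with CD4+CD25+ in Cy5, so let-7e and miR-98 moved with the dye as most probes did and the other 3 the opposite way. After median centring the dye passed for 7 of 9 members, all higher with CD4+CD25+ in Cy5 (33.9% of all probes; 11.7% were lower), by 2.31 ± 0.410 (let-7g) to 3.02 ± 0.445 (let-7f). let-7e then had -0.058 ± 0.317 (adjusted p = 0.9) and miR-98 0.57 ± 0.375 (adjusted p = 0.232). After scale normalization let-7e was the 1 member that passed (-1.45 ± 0.401, limma adjusted p = 0.033), against 7.6% of all probes higher and 21.6% lower. A dye effect that is equal and opposite on both arrays of a pair cancels in the means above; what made the ratios differ between dyes was not tested.

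**Figure D3:**
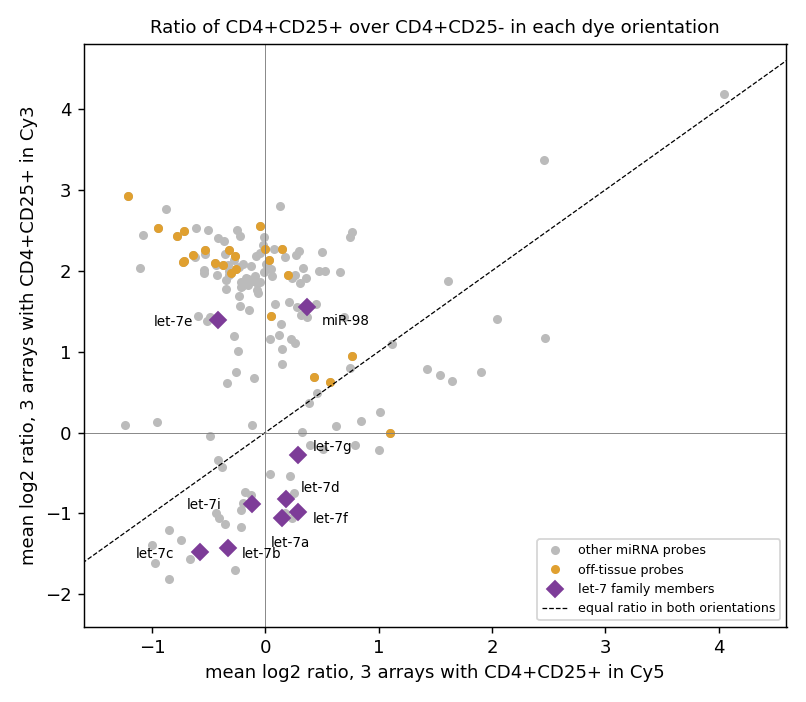
Mean log2 ratio on the 3 arrays with CD4+CD25+ in Cy5 (x axis) against that on the 3 arrays with it in Cy3 (y axis) for 171 miRNA probes, with family members as purple diamonds and 24 off-tissue probes in orange; points on the dashed line have equal ratios in both orientations. let-7e (-0.41 and 1.39) and miR-98 (0.37 and 1.55) lie in the large upper cloud, as do most off-tissue probes. The median of the off-tissue probes averaged -0.33 over the Cy5 arrays and 2.17 over the Cy3 arrays. The other 7 members lie below 0 on the y axis.

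In each orientation alone the family gave different counts. With CD4+CD25+ in Cy3, 6 members were lower and 2 higher (let-7e at 1.39 ± 0.194 and miR-98 at 1.55 ± 0.224, SD over 3 arrays), against 14.6% and 71.3% of all probes in limma. The 1 member that did not pass was let-7g at -0.28 ± 0.990. With CD4+CD25+ in Cy5, 0 members were lower and 0 higher in limma (0 at an unadjusted p under 0.05), against 4.09% and 7.02% of all probes. The members' means in that orientation ran from -0.57 (let-7c) to 0.37 (miR-98). With CD4+CD25+ in Cy3 the means of 7 of 9 members were below 0, as were 21.1% of all miRNA probes, and with it in Cy5 those of 4 of 9 were, against 56.1%. If the dye-swapped arrays had been turned before deposit, let-7e would be the 1 member called (-0.90 ± 0.276, lower; limma adjusted p = 0.0163), against 51.5% of all probes lower and 1.75% higher, and let-7b and let-7c would stand at 0.55 and 0.45. On that reading the mean of miR-223 would have opposite signs in the dye orientations.

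**Figure D4:**
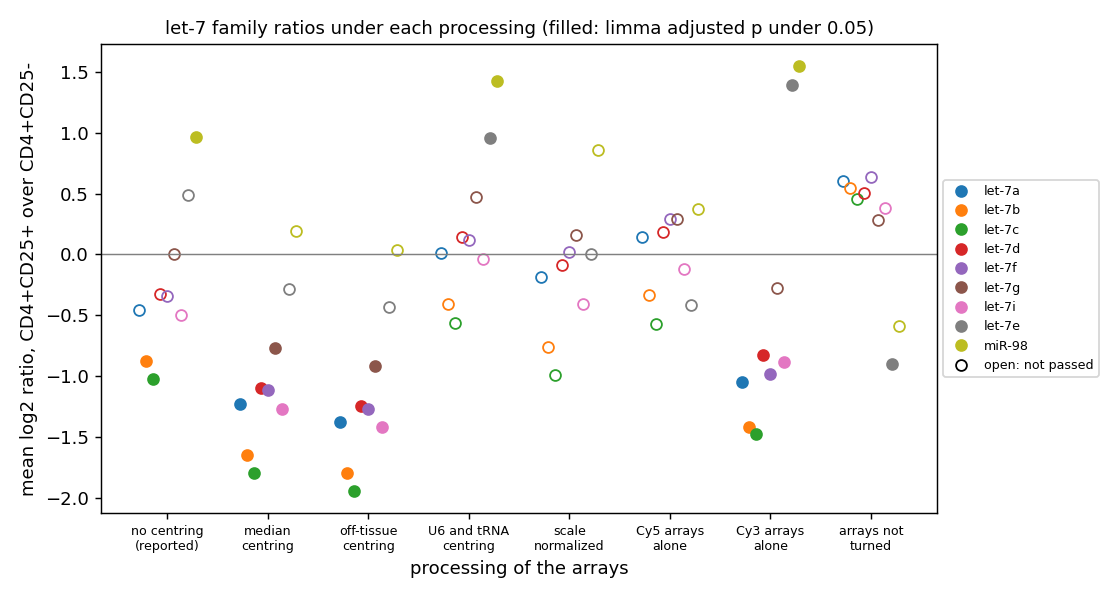
Mean log2 ratio of regulatory over conventional T cells (y axis) of each member under 8 ways of processing the arrays (x axis), filled where limma's adjusted p was under 0.05 and open where it was not. let-7c is the lowest member in every column but that of arrays not turned, let-7e and miR-98 are the 2 highest in every column but those of scale normalization, the Cy5 arrays alone and arrays not turned, and no member is filled on the Cy5 arrays alone or after scale normalization.

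The order of 2 members on the same array depends neither on the zero point nor on a scale factor of that array. Of the 36 pairs of members, 8 had the same order on 6 of 6 turned arrays (22.2%, against 16.3% of the 14535 pairs of all miRNA probes). let-7c was below let-7a, let-7d, let-7g and let-7i on every array, let-7b was below let-7g and let-7i, and let-7a and let-7d were below let-7g. let-7c lay 0.57 ± 0.321 (SD, n = 3) below let-7a, from which it differs by 1 base, and 1.03 ± 0.310 below let-7g. let-7b and let-7c, also 1 base apart, differed by 0.15 ± 0.164, less than their spread. In the order of the means, let-7c, let-7b, let-7i, let-7a, let-7f, let-7d, let-7g, let-7e and miR-98, let-7b and let-7i, and let-7d and let-7g, were the neighbours that kept their order on every array. The exact two-sided sign-flip test of 3 replicates cannot go below p = 0.25, and no other test of these differences was run. No pair that includes let-7e or miR-98 kept its order on every array. let-7e was below the mean of the other 7 members by 0.83 and 0.78 on arrays 1 and 3 and above it by 0.41 on array 5, and above it by 1.85, 2.95 and 2.34 on arrays 2, 4 and 6.

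Likeness of sequence and likeness of ratio went together in some pairs and not in others. The pattern of let-7a was closest to that of let-7d (root mean square difference over 6 arrays of 0.186, on the log2 scale), from which it differs by 2 bases, and let-7b was closest to let-7c (0.229). let-7e, 1 base from let-7a at U9G, differed from it by 1.87. miR-98, 2 bases from let-7a, differed from it by 2.03. let-7d and let-7i, which differ by 6 bases, were among the closest pairs at 0.381. Over the 36 pairs the number of differing bases and the root mean square difference had a Pearson correlation of -0.0010 and a Spearman correlation of 0.00090, and over the 21 pairs without let-7e and miR-98 of 0.11 and 0.099. Each member enters several pairs and all pairs share the 6 arrays, so these are descriptions. The 5 pairs whose genes lie within 10 kb of each other had values from 0.186 (let-7a with let-7d) to 1.94 (let-7f with miR-98), with a median of 0.400, against 0.914 for the other 31. Those 31 hold most pairs with let-7e or miR-98, the members set apart after their values were seen. The 14 pairs that join let-7e or miR-98 to 1 of the other 7 members had a median of 1.91. Among those 7 members the 21 pairs, neighbours included, had a median of 0.584. Which members a probe can tell apart was not tested, and the probe sequences were not used here.

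**Figure D5:**
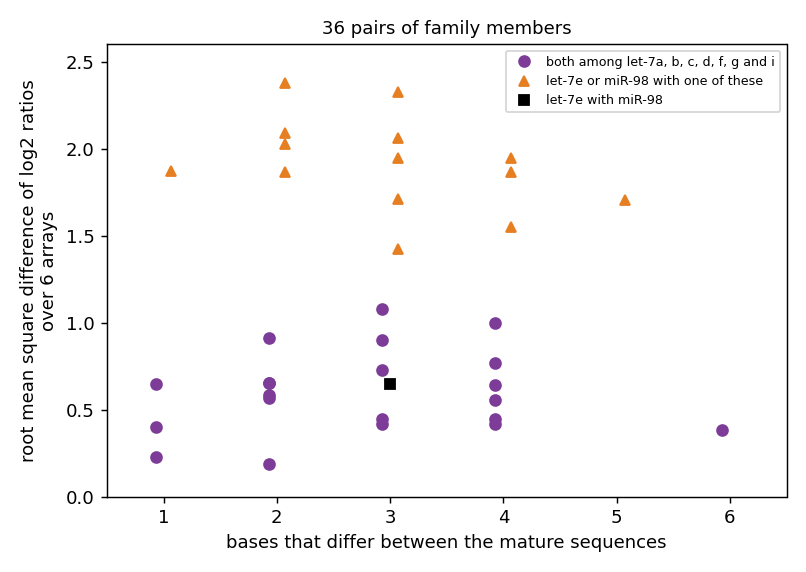
Number of bases that differ between the mature sequences (x axis) against the root mean square difference of log2 ratios over 6 arrays (y axis) for the 36 pairs of members. The pairs of let-7e or miR-98 with 1 of the other 7 members (triangles) run from 1.42 to 2.38 and the pairs among those 7 (circles) from 0.186 to 1.08, at like numbers of differing bases.

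Some miRNAs are made from the same stretch of the genome as a let-7 member. Beside let-7e, miR-125a had 1.53, 1.89 and 1.42 on arrays 1, 3 and 5 and 2.23, 1.54 and 1.85 on arrays 2, 4 and 6, so it was above 0 on 6 of 6 arrays (8.19% of all miRNA probes were), with a mean of 1.74 ± 0.292 (SD, n = 3; limma adjusted p = 0.00132). Its values did not overlap with those of let-7e in the Cy5 orientation. miR-99b, on the other side of let-7e, had 1.14 ± 0.447 (limma adjusted p = 0.00569). Of the 6 probes numbered miR-99, miR-100 or miR-125, 5 were higher, 0 lower and 1 did not pass without centring, against 67.3% of all probes higher. Relative to the array median 1 of the 6, miR-125a at 0.97 ± 0.314, was higher, against 5.26% of all probes. miR-99a, which neighbours let-7c-1, had 0.92 ± 0.528 (limma adjusted p = 0.0107), and miR-100, which neighbours let-7a-2, had 0.29 ± 0.755 (adjusted p = 0.312).

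Outside the family the 5 probes with the smallest root mean square difference from the mean of the 9 members over the 6 arrays were miR-106a (0.366), miR-17-5p (0.384), miR-93 (0.388), miR-321 (0.419) and miR-106b (0.431). Centring the arrays cannot change this choice, since it moves a probe and the family mean alike. By another measure the choice differed, as 0 of the 5 were among the 5 with the highest Pearson correlation over 6 arrays, which were miR-26b, miR-26a, miR-15b, miR-23b and miR-23a. The mean ratios of the nearest 5 ran from -0.46 (miR-106b) to -0.16 (miR-93), and none passed the test without centring (limma adjusted p from 0.111 to 0.568). Nor did 6 of the 9 members without centring. Calls of these 5 probes relative to the array median, where 7 of 9 members were lower, are not given here.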

How the data were processed

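The authors deposited 1 log ratio per array for each of 178 probes on 6 arrays, taken here as log2; the log base, direction, background correction and normalization are not stated per the labels or the file header, nor is any genome build. Members were taken by probe ID. The platform table named 6 of the 9 probes, with human symbols, all of the same number. Arrays with CD4+CD25+ in Cy3 had their sign turned. limma (version 3.58.1, R 4.3.3) was fitted to all 171 miRNA probes on 3 replicate values, each the mean of 2 arrays of opposite dye. Because pairs are not labelled, all 6 pairings were fitted, and the largest SD, p and Benjamini-Hochberg adjusted p are given; a call is an adjusted p under 0.05. Without centring, the variance was pooled over the probes to the same standard error, 0.271, for every probe, so p-values do not follow from single SDs. Some other fits gave standard errors that differed between probes, as from 0.199 (let-7c) to 0.262 (let-7f) after median centring. The dye effect was tested in limma on 6 arrays with a dye column, which takes the arrays of 1 replicate as independent. Steps were tested on simulated data. Named probes were the members, the miR-99, miR-100 and miR-125 probes and the 5 probes most like the family; miR-223, miR-144 and let-7d* are also given, the last chosen after the probe names were seen. The members, lists and alternatives were chosen with earlier results of these data known. No column was left out.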

Additional observations from a re-analysis of the deposited data

Results flagged for a closer look

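Ratios of 5 members differed between the dye orientations in limma's test of the dye column over 6 arrays. Over all miRNA probes 63.2% were lower and 7.02% higher with CD4+CD25+ in Cy5 in the same test. The mean with CD4+CD25+ in Cy5 minus that with it in Cy3 was 1.20 for let-7a (0.14 minus -1.05), 1.09 for let-7b (-0.33 minus -1.42) and 1.27 for let-7f (0.29 minus -0.98). It was -1.80 for let-7e (-0.41 minus 1.39) and -1.18 for miR-98 (0.37 minus 1.55). let-7e was below 0 on all 3 arrays of the first orientation and above 0 on all 3 of the second. No member had a single array far from the other 5.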

How the results depend on the processing

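The log base, direction and zero point of the ratios are not stated, and signal over background is unknown. Of the let-7 members called lower (2 as reported), median or off-tissue centring gave 7, the Cy3 arrays alone 6, leaving out the noisiest 25% of other probes 4, arrays not turned 1, and U6 and tRNA centring, scale normalization or the Cy5 arrays alone 0; leaving out arrays gave 0 to 5. Of those called higher (1 as reported), median or off-tissue centring, scale normalization, the Cy5 arrays alone and arrays not turned gave 0, and U6 and tRNA centring, the dye column, the Cy3 arrays alone and the noise filter 2; leaving out arrays gave 0 to 2. The median of the members (-0.35) moved to -1.12 (median centring) and -1.27 (off-tissue), and turned to 0.12 (U6 and tRNAs), 0.145 (Cy5 alone) and 0.45 (not turned). Dye calls (5) fell to 1 with scale normalization and were 1 to 7 with 1 array left out.

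Signs of single members also turned. With U6 and tRNA centring let-7a had 0.012, let-7d 0.14 and let-7f 0.12. On the Cy5 arrays alone let-7a had 0.145, let-7d 0.18, let-7f 0.29 and let-7e -0.41. With arrays not turned let-7a had 0.60, let-7b 0.55, let-7c 0.45, let-7d 0.50, let-7f 0.64, let-7i 0.38, let-7e -0.90 and miR-98 -0.59. let-7e had -0.29 and -0.44 with median and off-tissue centring and let-7g, at 0.0063 as reported, -0.77 and -0.92, and -0.28 on the Cy3 arrays alone. let-7f had 0.018 after scale normalization. With arrays left out let-7d ran from -0.66 to 0.0010, let-7f from -0.86 to 0.014 and let-7g from -0.39 to 0.37. The causes were not tested. let-7c and let-7b stayed below 0, and miR-98 above 0, in all alternatives except the arrays not turned and, for miR-98, some with median centring: its mean was -0.0705 without arrays 5 and 4 and -0.094 on the Cy3 arrays alone. The robust fit changed no call. No label tells which arrays share a replicate, so no pairing was fixed, and the largest p over all 6 pairings was used.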

Other observations

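The probe let-7d*, named for the strand opposite let-7d in the same hairpin, had a smaller spread over replicates than any member as long as the arrays were not centred. The RefSeq sequence of that strand, let-7d-3p, is shown with bases 2 to 8 in capitals, since it differs in its seed from the family.
let-7d*: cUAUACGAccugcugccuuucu
Its log2 ratio of regulatory over conventional T cells was -0.49, -0.20 and -0.55 on arrays 1, 3 and 5 and -0.25, -0.34 and -0.42 on arrays 2, 4 and 6. It was below 0 on 6 of 6 arrays, with a mean of -0.37 ± 0.134 (SD, n = 3; limma adjusted p = 0.186, not passed), and differed by -0.078 ± 0.418 (standard error) between dye orientations (limma adjusted p = 0.884). let-7d minus let-7d* was 1.22, 0.32 and 0.24 on arrays 1, 3 and 5 and 0.20, -1.29 and -0.39 on arrays 2, 4 and 6. Relative to the array median let-7d* had -1.15 ± 0.353 and was called lower (limma adjusted p = 0.000634), as 22.8% of all miRNA probes were. It then ran from -2.24 to 0.112 over the 6 arrays, a wider spread than that of let-7e (± 0.170), and was 1.67 ± 0.339 (standard error) higher with CD4+CD25+ in Cy5 (limma adjusted p = 0.000379).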
